A study of Macaca mulatta with 10 samples.

Results

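The genes described here are the NDUF genes, which encode the nuclear subunits of respiratory complex I together with a few proteins that share the prefix. All rows of the deposited gene table whose symbol starts with NDUF were taken, which gave 36 of 18622 genes. The series profiled lymph nodes of 10 male rhesus macaques (Macaca mulatta), of which 5 had been kept in unstable and 5 in stable social conditions. Every array came from a different animal, and so did the 5 values of a group. No other treatment, genotype or infection is given in the labels. The question behind the design was whether the social condition went with a difference in lymph node gene expression.

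Complex I (NADH:ubiquinone oxidoreductase) is the entry point for electrons from NADH into the mitochondrial respiratory chain. Its peripheral arm reaches into the mitochondrial matrix, takes electrons from NADH and passes them along a chain of iron-sulfur clusters to ubiquinone. Its membrane arm pumps protons, and the gradient they build drives ATP synthase. The catalytic subunits of the membrane arm are encoded by mitochondrial DNA and carry no NDUF symbol. The NDUF genes encode the catalytic core of the peripheral arm and the accessory subunits of both arms. In lymphocytes, the main cells of a lymph node, mitochondrial respiration is known to support activation and the persistence of memory cells.

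Signals were log2 values of the authors' gene table, made from Illumina bead arrays whose probes were designed on human transcripts, and levels of different genes are not set against each other here. A gene was called above background on an array where it lay more than 3 SDs over the array's most common log2 value, with the SD taken from the lower side of that mode. Of the 36 NDUF genes, 24 were above background on all 10 arrays, 6 on some arrays and 6 on none, against 6571 and 8865 of all genes on all arrays and on none. Median intensity per array lay between 104.5 and 118.6, and the correlation between arrays lay between 0.9715 and 0.9903 over 8592 genes with signal above background in at least 3 animals. Unstable animal 4 had the lowest mean correlation with the other arrays (0.9764), followed by stable animal 2 (0.9777). The arrays lay on 3 slides. Unstable animals 4 and 5 shared slide 3, stable animals 1 to 4 shared slide 2, and slide 1 held unstable animals 1 to 3 with stable animal 5. The labels give an age without a unit, which was 6.84, 6.72, 6.7, 5.62 and 5.61 for unstable animals 1 to 5, against 5.73 to 5.87 for the stable animals. Of the defining markers of lymph node tissue, all 8 measured T cell markers and 6 of 9 B cell markers were above background on all 10 arrays; BLK, PAX5 and MS4A1 were so on none.

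No NDUF gene passed the test between unstable and stable animals. The limma fit across all genes passed 0 of 36 NDUF genes at an adjusted p of 0.05, with adjusted p from 0.942 to 0.997, and 0% of all genes. At an unadjusted p under 0.05 there were 0 NDUF genes in this fit, against 5.13% of all genes, and 7 or 8 in 3 other fits given with the slide, age label and scaling results. The smallest unadjusted NDUF value in this fit was 0.0553. The values of 1 animal stood apart, however. On the array of unstable animal 4, 22 of the 36 NDUF genes had their highest value of all 10 arrays, against 10.7% of all genes. Among the 24 genes above background on all arrays these were 21, against 11.9% of the 6571 genes that met the same condition. Their median excess over the mean of the other 9 arrays was 0.426 log2 units, which is 1.34-fold. Because whole nodes were profiled, a larger share of cells rich in these transcripts and more transcript per cell cannot be told apart.

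**Figure D1:**
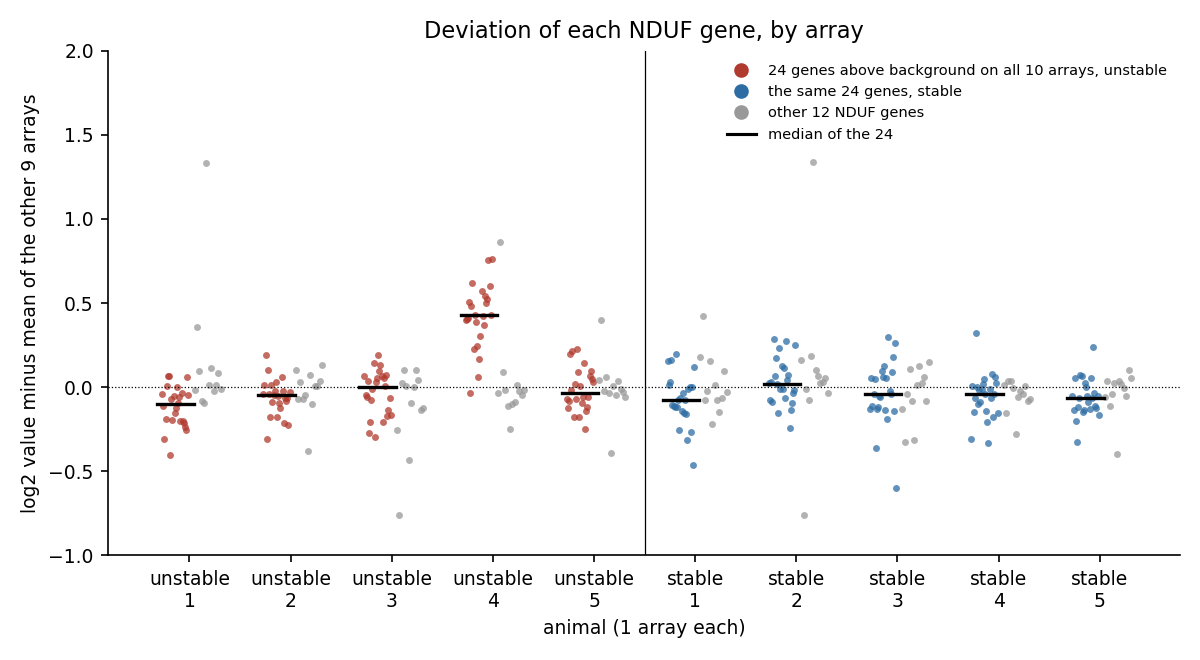
Difference of each NDUF gene on 1 array from its mean over the other 9 arrays, in log2 units, for the 5 unstable animals (red) and the 5 stable animals (blue). Coloured points are the 24 genes above background on all 10 arrays, black bars their medians and grey points the other 12 genes. The median is 0.426 in unstable animal 4 and between -0.102 and 0.0193 on the other arrays, whose reference means include unstable 4.

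The core subunits of the peripheral arm carry the catalytic steps, and all 7 were in the table. Of the 7, 5 had a higher mean in unstable animals, with a median difference of 0.0877 log2 units, and 0 passed the test. NDUFV1, which binds NADH and the flavin that accepts its electrons, had log2 values of 8.81, 8.55, 8.70, 9.14 and 8.80 in unstable animals 1 to 5, against 8.34, 8.74, 8.99, 8.78 and 8.71 in stable animals 1 to 5. Unstable 4 was the highest and stable 1 the lowest, and the groups overlapped. NDUFV2, the partner of NDUFV1 with its own iron-sulfur cluster, had values of 11.31, 11.33, 11.21, 12.04 and 11.38 in unstable animals, against 11.47, 11.58, 10.82, 11.22 and 11.21 in stable animals. Its value in unstable 4 stood 0.761 above the mean of the other 9 arrays, which is 1.69-fold, and the other 4 unstable values lay inside the stable range. The difference of the group means was 0.197 (SE 0.175, 95% interval -0.192 to 0.585, adjusted p = 0.955), and 0.050 without unstable 4.

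NDUFS1, the largest subunit and a carrier of several iron-sulfur clusters, was above background on no array. Its values of 6.78, 6.59, 6.68, 6.60 and 6.64 in unstable animals and 6.61, 6.74, 6.79, 6.66 and 6.70 in stable animals therefore hold no order of expression. NDUFS3, which sits beside the quinone site, was likewise above background on no array, with 6.62, 6.64, 6.73, 6.65 and 6.67 in unstable animals and 6.50, 6.66, 6.66, 6.60 and 6.63 in stable animals. The human probes for both genes thus gave no signal above background from these nodes.

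NDUFS7, which holds the last iron-sulfur cluster before ubiquinone, had values of 9.63, 9.78, 9.69, 10.53 and 9.91 in unstable animals, against 9.61, 9.76, 10.01, 9.81 and 9.75 in stable animals. Unstable 4 was the highest of the 10 animals, by 0.754 over the mean of the other arrays, and the remaining unstable and stable values overlapped. The group difference of NDUFS7 was 0.120 (SE 0.153, adjusted p = 0.973) with all animals and -0.035 without unstable 4. NDUFS8, which passes electrons through its iron-sulfur clusters towards NDUFS7, had 8.74, 8.92, 8.85, 9.52 and 9.06 in unstable animals, against 8.97, 8.94, 8.85, 9.03 and 8.86 in stable animals. Its value in unstable 4 was again the highest, 0.456 above that of the next animal, unstable 5. All 5 core genes above background were highest in unstable 4, with a median excess of 0.602 and a range from 0.429 for NDUFV1 to 0.761 for NDUFV2.

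**Figure D2:**
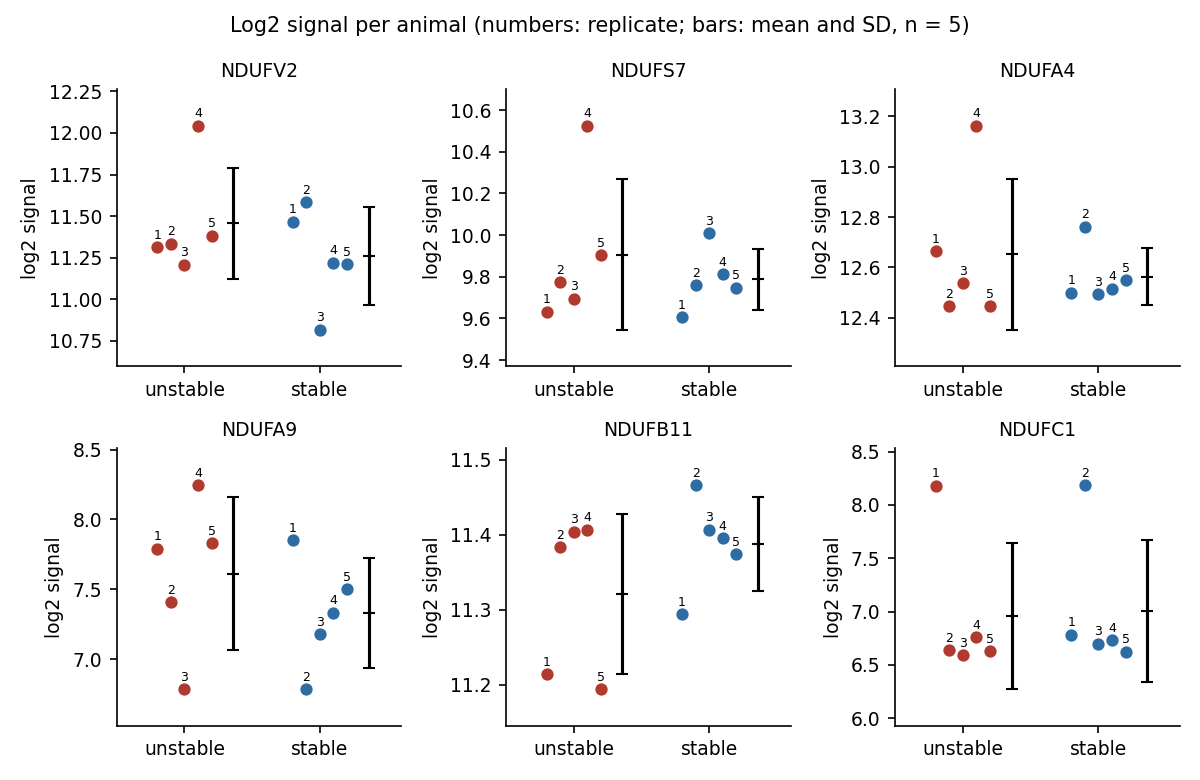
Log2 signal of 6 NDUF genes in each animal (points, numbered by replicate, unstable red and stable blue), with the group mean and SD (n = 5) as bars. NDUFV2, NDUFS7, NDUFA4 and NDUFA9 are highest in unstable animal 4, NDUFB11 is not, and NDUFC1 has 1 high animal in each group (8.18 in unstable 1 and 8.19 in stable 2).

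Accessory subunits of the peripheral arm stabilise that arm and its assembly. Of the 7 in the table, 3 had a higher mean in unstable animals (median difference -0.027), and 3 were above background on all 10 arrays. NDUFA9, a nucleotide-binding subunit near the joint of the arms, was above background on 8 arrays and had values of 7.79, 7.41, 6.79, 8.25 and 7.83 in unstable animals, against 7.85, 6.79, 7.18, 7.33 and 7.50 in stable animals. It was 1 of 3 NDUF genes, with NDUFV2 and NDUFC1, whose values spread over more than 1 log2 unit, with unstable 4 at the top and unstable 3 and stable 2 at the bottom. Unstable 4 lay 0.862 above the mean of the others, the farthest of any NDUF gene, although that mean includes 2 animals whose values were not above background. Its group difference of 0.282 (SE 0.265, 95% interval -0.305 to 0.869, adjusted p = 0.955) was the largest among the 36 and became 0.123 without that animal.

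NDUFS4, a subunit whose loss in humans and mice causes a Leigh-like brain disease, had a mean of 10.95 ± 0.253 in unstable animals and 10.85 ± 0.0958 in stable animals (SD, n = 5 each). Its value in unstable 4 was 11.37, against a range of 10.71 to 10.98 over the other 9 arrays. NDUFA12, which takes the place of an assembly factor late in assembly, averaged 9.51 ± 0.290 in unstable animals and 9.42 ± 0.118 in stable animals, and NDUFA7 averaged 9.31 ± 0.207 and 9.37 ± 0.104. Both were highest in unstable 4. NDUFA5, above background on 9 arrays, was not: it averaged 7.02 ± 0.123 in unstable animals and 7.08 ± 0.122 in stable animals, and its value in unstable 4 was 0.034 below the mean of the others. NDUFV3, a small subunit beside NADH oxidation, was above background on 2 arrays, and NDUFS6, a zinc-binding subunit, on none. Their means in unstable and stable animals were 6.75 ± 0.0848 and 6.78 ± 0.0793 for NDUFV3, and 6.55 ± 0.0759 and 6.58 ± 0.0838 for NDUFS6.

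The membrane arm had the most members, 19 accessory subunits, of which 13 were above background on all 10 arrays. Of the 19, 12 had a higher mean in unstable animals (median difference 0.0492), and 11 did without unstable 4 (median 0.00588). These 11 were partly other genes. Without unstable 4 the difference turned negative in NDUFA10 (-0.036), NDUFA11 (-0.033) and NDUFB2 (-0.013). It turned positive in NDUFB10 (0.0024) and NDUFC1 (0.0059), both above background on 2 arrays. The subunits at the base of the membrane arm, near the joint, include NDUFA1, NDUFA3, NDUFA8 and NDUFA13. NDUFA3 had values of 11.87, 11.78, 11.63, 12.25 and 12.01 in unstable animals, against 11.71, 11.87, 11.49, 11.82 and 11.71 in stable animals. Unstable 4 and unstable 5 were the highest animals, unstable 1 equalled the highest stable animal to 2 decimals, and the groups overlapped. The difference was 0.189 (SE 0.111, adjusted p = 0.945), and 0.103 without unstable 4. NDUFA1 averaged 11.37 ± 0.175 in unstable animals and 11.26 ± 0.156 in stable animals, and NDUFA8, a disulfide-rich protein of the intermembrane face, averaged 11.01 ± 0.200 and 10.89 ± 0.0763. NDUFA10, a kinase-fold subunit on the matrix side, averaged 7.27 ± 0.197 and 7.22 ± 0.0686, and NDUFA11, a membrane protein, averaged 10.10 ± 0.248 and 10.05 ± 0.0844. Unstable 4 was the highest animal for these 4 genes, by 0.40 to 0.43 over the mean of the others.

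NDUFA13, also known as GRIM-19 and described as a partner of STAT3, averaged 9.69 ± 0.124 in unstable animals and 9.77 ± 0.243 in stable animals, and had its highest values in stable 4 (10.01) and stable 2 (9.98). Its value of 9.69 in unstable 4 was 0.036 below the mean of the other arrays, the only negative deviation among the 24 genes above background.

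The NDUFB subunits line the distal part of the membrane arm. NDUFB5 had values of 9.19, 9.19, 9.39, 9.79 and 9.22 in unstable animals, against 9.14, 9.21, 9.32, 9.09 and 9.19 in stable animals. Unstable 4 stood alone, with the other 9 animals between 9.09 and 9.39. Its group difference of 0.164 (SE 0.108, adjusted p = 0.945) became 0.055 without that animal. NDUFB11 lacked the high value in unstable 4, with 11.21, 11.38, 11.40, 11.41 and 11.19 in unstable animals, against 11.29, 11.47, 11.41, 11.40 and 11.37 in stable animals. Its lowest values were in unstable 1 and 5, and unstable 4 lay 0.059 above the mean of the others. The difference was -0.067 (SE 0.053, adjusted p = 0.952), and -0.088 without unstable 4. NDUFB6 averaged 9.29 ± 0.192 in unstable animals and 9.13 ± 0.201 in stable animals, NDUFB3 averaged 11.77 ± 0.142 and 11.68 ± 0.0937, and NDUFB8 had 11.80 to 12.42 in unstable animals and a mean of 11.86 ± 0.128 in stable animals, a difference of 0.140 (SE 0.109). NDUFB7, another disulfide-rich subunit, averaged 9.51 ± 0.237 in unstable animals and 9.59 ± 0.149 in stable animals. These 4 genes were highest in unstable 4, and for NDUFB7 the difference was -0.082 with all animals and -0.175 without that one. The latter had the smallest p of any NDUF gene in the fit without unstable 4, at an adjusted p of 1.0 by limma. NDUFB2 averaged 8.99 ± 0.150 and 8.97 ± 0.0868, and its highest animal was unstable 3.

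The remaining membrane arm genes had little or no signal. NDUFB1 was above background on no array, with values of 6.70, 6.64, 6.63, 6.69 and 6.59 in unstable animals and 6.54, 6.60, 6.58, 6.64 and 6.51 in stable animals. NDUFB4, also above background on no array, had 6.47, 6.51, 6.55, 6.45 and 6.52 in unstable animals and 6.69, 6.71, 6.48, 6.54 and 6.57 in stable animals. These genes held the smallest p among NDUF genes in each direction, 0.0553 for a difference of 0.075 and 0.0617 for a difference of -0.100 (adjusted p = 0.942 for both), at signals that cannot be told from background. NDUFC2, above background on no array, had 6.52, 6.58, 6.43, 6.42 and 6.52 in unstable animals and 6.52, 6.61, 6.52, 6.46 and 6.55 in stable animals. NDUFB10 was above background on 2 arrays and NDUFS5 on 6, with means of 6.81 ± 0.0714 and 6.89 ± 0.0218 in unstable animals, and of 6.81 ± 0.0656 and 6.88 ± 0.0464 in stable animals.

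NDUFC1, singled out after its values were seen, was above background on 2 arrays only. Its values were 8.18, 6.64, 6.59, 6.76 and 6.63 in unstable animals, against 6.78, 8.19, 6.70, 6.73 and 6.62 in stable animals. Unstable 1 and stable 2 thus stood apart from the other animals of their groups. With 1 such animal in each group the difference was -0.045 and its 95% interval ran from -0.872 to 0.783.

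NDUFAB1, the mitochondrial acyl carrier protein, is bound to both arms and also serves fatty acid and lipoic acid synthesis. It had values of 7.30, 7.43, 7.21, 7.82 and 7.68 in unstable animals, against 7.40, 7.68, 7.42, 7.46 and 7.34 in stable animals. Unstable 4 was the highest, with unstable 5 and stable 2 next. NDUFA4, first purified with complex I and now placed in complex IV, had values of 12.67, 12.45, 12.54, 13.16 and 12.45 in unstable animals, against 12.50, 12.76, 12.49, 12.52 and 12.55 in stable animals. Its value in unstable 4 was 0.617 above the mean of the others, and the next highest animal was stable 2. Its difference was 0.088 (SE 0.127, adjusted p = 0.973), and -0.040 without unstable 4. NDUFAF1, an assembly factor that is absent from the finished enzyme, had values of 8.35, 8.38, 8.43, 8.62 and 8.48 in unstable animals, against 8.17, 8.39, 8.49, 8.42 and 8.28 in stable animals. It had a smaller excess in unstable 4, 0.246, and a difference of 0.104 (SE 0.068, adjusted p = 0.945), or 0.062 without that animal. NDUFA2, NDUFA6, NDUFB9 and NDUFA4L2 were not analysed here.

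**Figure D3:**
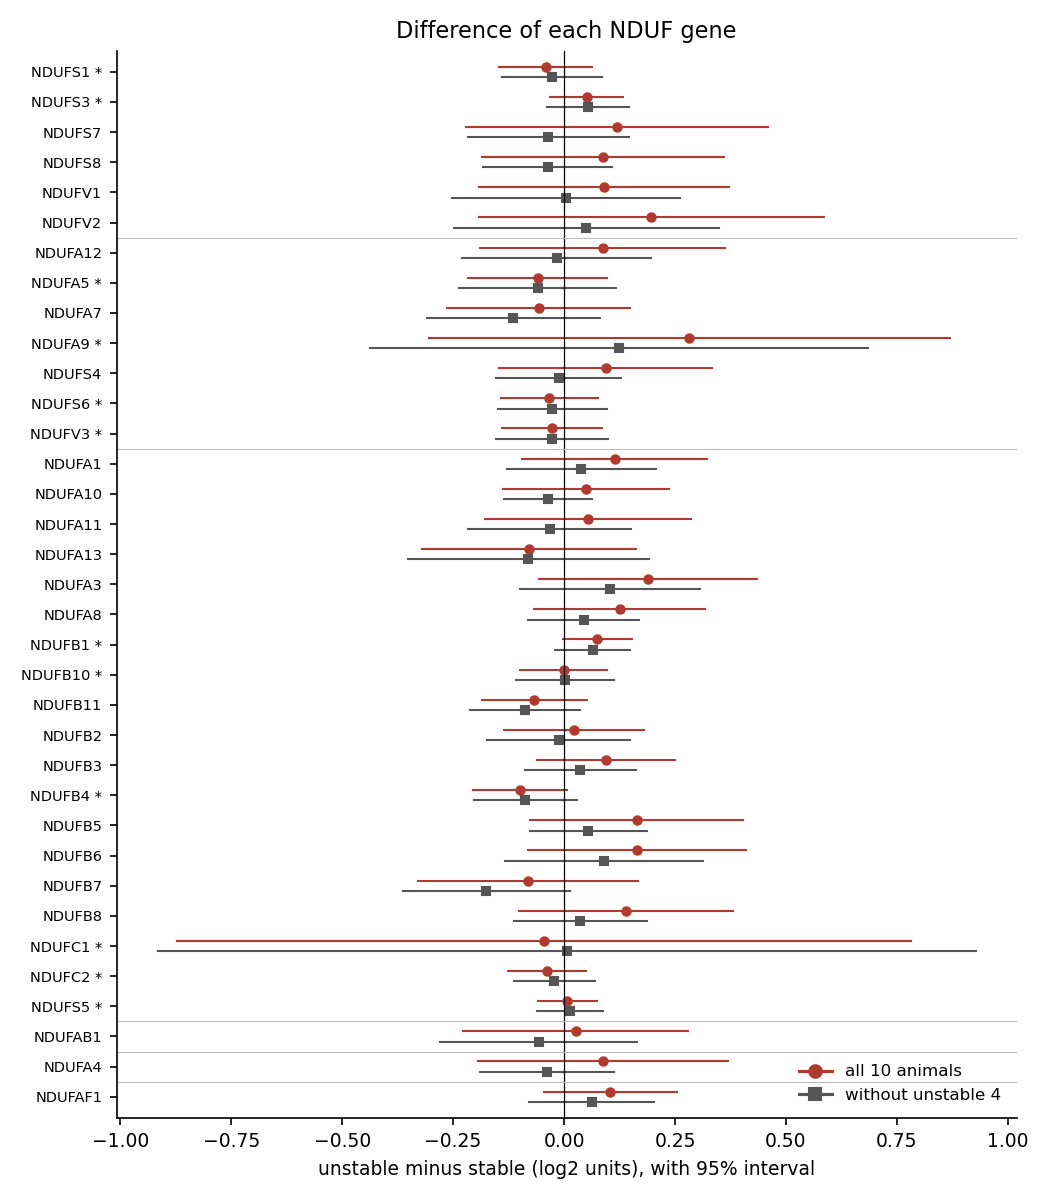
Difference of means, unstable minus stable, in log2 units with its 95% interval for 35 NDUF genes, from the fit on all 10 animals (red) and on 9 animals without unstable 4 (grey). Lines separate the core, the peripheral arm, the membrane arm, NDUFAB1, NDUFA4 and NDUFAF1, and an asterisk marks genes not above background on all 10 arrays; every interval includes 0 in both fits.

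Over the whole set, 23 of 36 NDUF genes had a higher mean in unstable animals, against 48.9% of all genes, and 19 of 24 above background, against 47.7%. Without unstable 4 these counts were 16 of 36, against 49.6% of all genes, and 10 of 24, against 50%. The sign changed for 11 of the 36 genes when this animal was left out. The 2 groups overlapped in each NDUF gene: the count of genes whose groups did not overlap was 0, against 0.838% of all genes. The mean log2 value over the 36 genes was 8.89 ± 0.132 in unstable animals and 8.84 ± 0.0400 in stable animals (SD, n = 5 each), a difference of 0.0495. Over 4 unstable animals without unstable 4 it was 8.83 ± 0.0212, and the difference was -0.00906. In this fit on 9 animals, limma passed 0 of 36 NDUF genes and 0% of all genes, and at an unadjusted p under 0.05 there were 0 NDUF genes, against 4.4% of all genes. These signs depend on the scaling of the arrays: when intensities were scaled to a common median in place of the authors' values, the mean difference was 0.109 with all animals (29 of 36 higher, against 52.8% of 16664 genes) and 0.0729 without unstable 4 (27 of 36 higher, against 55.8%). With all animals so scaled, 8 of 36 NDUF genes had an unadjusted p under 0.05, against 6.73% of genes, and limma passed no NDUF gene at the adjusted threshold in either fit.

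Leaving out unstable 4 also changed the precision. The median standard error of the difference over the 24 genes was 0.109 with all animals and 0.0778 without unstable 4. Over the 6571 genes above background it was 0.0772 with all animals. Their value without unstable 4 is not given, so how far it changed is not shown. Fits with slide or age label gave other mean differences. With slide as a fixed block the mean difference was 0.005, the value within slide 1, the only slide with both groups. That slide held 1 stable animal. Unstable 4, on slide 3, takes no part in this value, which is a further estimate without that animal. With the age label as a covariate the mean difference was 0.12. In that fit 8 of 36 NDUF genes had an unadjusted limma p under 0.05, against 6.18% of all genes. Within the unstable group the age label set animals 1 to 3 apart from 4 and 5, so the 0.12 leans on unstable 4 and 5. Without the 3 unstable animals of higher age label the mean difference was 0.15. Then 7 of 36 NDUF genes had an unadjusted limma p under 0.05, against 5.34% of all genes. No NDUF gene passed limma's adjusted threshold in these fits. In that last fit unstable 4 and 5, both on slide 3, were the whole unstable group. Unstable 5 shared the slide of unstable 4 and had nearly the same age label. Its median deviation from the other 9 arrays, among them unstable 4, was -0.037 over the 24 genes. The mean of unstable 5 over these genes was 9.89, where the arrays other than unstable 4 ranged from 9.79 to 9.93. Unstable 4 exceeded unstable 5 in 23 of the 24 genes, against 44.7% of the 6571 genes, with a median of 0.433. Whether slide or age label had a part in the values of unstable 4 was not tested.

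Agreement between the NDUF genes across arrays was strong with unstable 4 among them and weak without it. Over 10 arrays the median Pearson correlation over the 276 pairs of the 24 genes above background was 0.562, and 94.9% of pairs were above 0. Over the 9 arrays without unstable 4 the median was 0.0684, and 54.3% of pairs were above 0. All pairs of the 6571 genes above background had medians of 0.00313 and 0.000879, and all correlations here share the same arrays and scaling. Each gene was also compared with the mean of the other 23 NDUF genes. NDUFS8 (0.909), NDUFS7 (0.902) and NDUFB5 (0.897) followed that mean most closely over 10 arrays, and NDUFA13 (-0.0406) and NDUFB11 (0.298) least. Without unstable 4 the median of this correlation was 0.167, against 0.729 with it, and NDUFAB1 (0.554) and NDUFB6 (0.503) were the genes above 0.5.

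Within unstable 4 the excess was not uniform. It covered 23 of 24 genes above background and ranged from -0.0357 in NDUFA13 to 0.761 in NDUFV2, and in 15 of them it was more than 3 SDs of the other 9 arrays, against 4.38% of the 6571 genes. NDUFA13, NDUFB11 and NDUFB2 were the genes of the 24 whose highest animal was another one. Core genes had a median excess of 0.602, accessory genes of the peripheral arm 0.506 and accessory genes of the membrane arm 0.407, and these ranges overlapped. An excess of at least 0.426, the NDUF median, was seen in 4.66% of the 6571 genes, which are 306 genes. Before normalization, the intensity of 15 of the 24 genes was highest in unstable 4 and of 7 in unstable 3. The share over all genes is not given for these counts. Array levels differed at that stage, with a mean intensity of 345.9 in unstable 4 and 405.2 in unstable 3. With median scaling in place of the authors' normalization, 17 of the 24 were highest in unstable 4, with a median excess of 0.345. Over the 5634 matched genes above background, 8.45% were highest there and the median was -0.0709.

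Genes that assemble complex I and carry no NDUF symbol in the deposited table had excesses from -0.321 to 0.686 in unstable 4. Their difference from the NDUF genes was not tested. Of 13 assembly factors measured under other names, 0 passed the test. In unstable animals 4 had a higher and 9 a lower mean, against 48.9% of all genes higher. In unstable 4, 2 were highest (median excess -0.0429), against 10.7% of all genes. TMEM70, which acts in the assembly of ATP synthase and of complex I, had the smallest p of them, with a difference of -0.108 (adjusted p = 0.942). FOXRED1, a complex I assembly factor, differed by -0.124 (adjusted p = 0.945). C8orf38, which the macaque gene table names NDUFAF6 and which was picked out after its values were seen, was 1 of those 2, with 8.47 in unstable 4 and 7.31 to 8.12 in the other 9 animals.

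Many genes of other parts of energy metabolism were high in the same array, and limma passed 0 genes of each list at an adjusted p of 0.05. Of 13 genes of the citric acid cycle, which supplies complex I with NADH, 13 had a higher mean in unstable animals, against 48.9% of all genes. Without unstable 4, 6 did, against 49.6%. In unstable 4, 11 were highest (median excess 0.583), against 10.7% of all genes. Of the 13, 10 were above background on all 10 arrays. In SUCLG1, a subunit of succinyl-CoA ligase and the list's gene of smallest p, the excess was 0.683. Of 4 complex II genes, 3 were highest in unstable 4, with an excess of 0.842 in SDHA and 0.559 in SDHB, the subunits that oxidise succinate and carry its electrons. Of 14 ATP synthase genes 8 were highest there (median excess 0.386), of 8 complex III genes 4 (0.352) and of 10 complex IV genes 5 (0.213). The medians here cover all measured genes of a list, for which the NDUF median was 0.378. Over genes above background on all 10 arrays they were 0.462, 0.653 and 0.536 for these 3 lists. Under that filter the citric acid cycle had 0.609, complex II 0.559 and the NDUF genes 0.426. Of 17 glycolysis genes 9 were highest in unstable 4 (median excess 0.226). Among genes above background on all 10 arrays, 6 of 8 complex IV and 10 of 13 glycolysis genes exceeded the mean of the other arrays. Those that did not include COX6C (-0.324) and COX7C (-0.268) of complex IV and ENO1 (-1.14) and ENO2 (-0.369) of glycolysis. The 11 regulators of mitochondrial biogenesis had a median excess of 0.0261, and 3 were highest in unstable 4. Of the 11, 6 were above background on all 10 arrays (median excess -0.0405) and 4 on none. Their excesses ran from -0.281 in PPRC1 to 0.672 in PPARGC1A. PPARGC1A was above background on 2 arrays only, with 7.34 in unstable 4 and 6.54 to 6.90 in the others. GABPB2, a subunit of a factor that drives nuclear respiratory genes, had the smallest p of the 11, with a difference of 0.110 (adjusted p = 0.942).

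**Figure D4:**
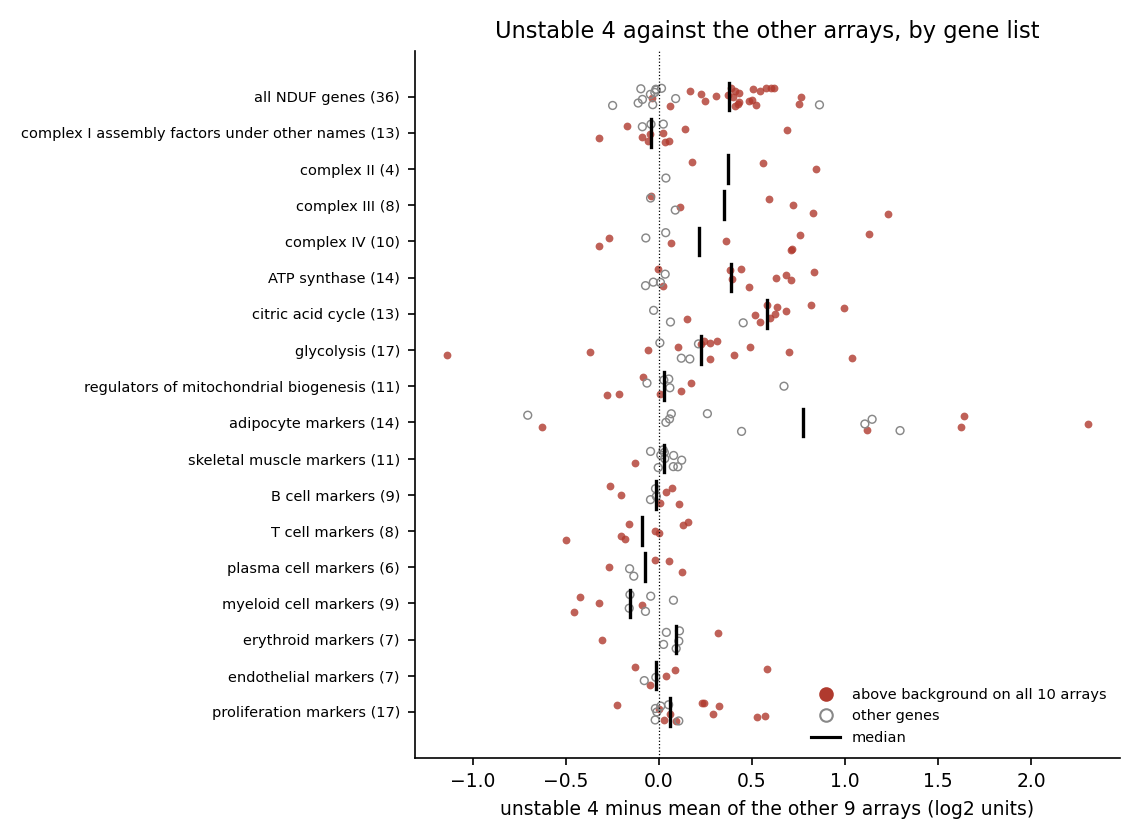
Value in unstable animal 4 minus the mean of the other 9 arrays, in log2 units, for each gene of 18 lists (list size in brackets), with filled points for genes above background on all 10 arrays and black bars for list medians. NDUF genes, citric acid cycle genes and respiratory complexes lie mostly above 0 (medians over all measured genes from 0.213 for complex IV to 0.583 for the citric acid cycle), adipocyte markers reach 2.30 with a median of 0.775, and T cell, B cell and myeloid markers have medians of -0.156 to -0.0142.

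Markers of fat cells were also high in unstable 4. Of 14 adipocyte markers measured, 9 were highest in that animal, against 10.7% of all genes. The mean log2 value of the 14 was 8.08 there, against 7.21 to 7.52 in the other 9 animals. DGAT2 (excess 2.30), FABP4 (1.64), SCD (1.62), LIPE (1.15, above background on 9 arrays) and CD36 (1.12) were high there. RBP4 was above background on 2 arrays only, with 7.99 in unstable 4 and 6.60 to 7.0 in the others. ADIPOQ (0.037), LEP (-0.630) and LPL (-0.705) had no such excess. The 14 were above background on all 10 arrays in 5 cases and on none in 2. Skeletal muscle markers, of which 9 of 11 were above background on no array, had a mean of 6.71 in unstable 4, against 6.65 to 6.72 in the others. T cell markers had a mean of 8.89 in unstable 4, against 8.74 to 9.31, and B cell markers 8.70, against 8.58 to 8.88. Myeloid markers had a mean of 8.30, against 8.28 to 8.67. Of these 9 markers, 5 were lowest in unstable 4, against 2255 of all 18622 genes. The 4 myeloid markers above background on all 10 arrays had a median excess of -0.372 there. Plasma cell markers had a mean of 8.56, against 8.32 to 9.0, proliferation markers 8.03, against 7.73 to 8.20, endothelial markers 8.95, against 8.64 to 9.12, and erythroid markers 8.27, against 7.90 to 8.48. The part of the cells behind these markers in the NDUF excess of unstable 4 was not tested.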

How the data were processed

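Illumina HumanRef-8 arrays with biotin-labelled cRNA were used, per the labels' protocols. The deposited tables hold intensity per probe, not normalized between arrays, and log2 values per gene, whose distribution was nearly the same on all arrays. The submitters' processing notes name GenomeStudio, and the normalization is not given in the sources used here. Probes were tied to genes by matching both deposited tables, within 0.002 log2 units for 1 probe and 0.008 for the mean of 2. All 36 NDUF rows matched, 35 of them to 1 probe. All 36 symbols were found in the macaque RefSeq gene table. Where macaque and human sequences differ, a probe can give less signal.

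Groups, slides and age labels came from the labels. Unstable was set against stable for all 18622 genes by limma's moderated two-sided test (version 3.58.1, R 4.3.3) without covariates, and again without unstable 4. P-values were adjusted over all genes by Benjamini-Hochberg, at a threshold of 0.05. The fit was tested on simulated data. SEs and intervals are limma's, and SDs are over animals.

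The members and gene lists were chosen with earlier results of these data known. NDUF genes are named with their level, except 1 that is not reported here but is included in all counts and means. Values in every animal are given for the other core subunits, NDUFAB1, NDUFA4, NDUFAF1, the 4 genes of smallest p in each direction and the 3 in which unstable 4 lay farthest from the others. Of other lists at most 3 genes of smallest p are named, and genes of largest excess in unstable 4 were named after their values were seen. Correlations are descriptions without a test. Alternatives covered each animal left out, slide, age label, replicate number, array weights, a trend, background filters and 3 other scalings of the intensity table (quantile, normexp with an offset of 16, and median). Figures were drawn with matplotlib 3.10.9.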

Additional observations from a re-analysis of the deposited data

Results flagged for a closer look

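These values stood apart from the other animals of their group by Dixon's test at the 95% level, which chance meets in about 1 of 20 groups. In unstable animal 4, NDUFV2 had a log2 value of 12.04, against 11.21 to 11.38 in the other unstable animals, and NDUFA10 had 7.61, against 7.14 to 7.26. In the same animal the mean over the 36 NDUF genes was 9.12, against 8.81 to 8.86 in the other unstable animals, and the mean over the 24 genes above background was 10.28, against 9.79 to 9.89. Among stable animals, stable 2 had 12.76 for NDUFA4, against 12.49 to 12.55 in the others, and a mean over the 36 NDUF genes of 8.91, against 8.81 to 8.83. That mean includes NDUFC1, and over the 24 genes above background stable 2, at 9.93 against 9.83 to 9.87, did not stand apart by this test. NDUFC1 stood apart in both groups, at 8.18 in unstable 1, against 6.59 to 6.76, and at 8.19 in stable 2, against 6.62 to 6.78. Among the 24 NDUF genes above background, 8.33% were marked in the unstable group and 4.17% in the stable group, against 7.67% and 5.92% of the 6571 genes above background. Marks with unstable 4 as the high animal made up 8.33% of the 24 NDUF genes, which are 2 genes, against 2.13% of the 6571.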

How the results depend on the processing

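No NDUF gene passed an adjusted p of 0.05 by limma under any of 27 alternatives, 23 of them planned and 4 chosen after seeing the data, and slide as a random block gave the smallest adjusted p of an NDUF gene, 0.649. The mean NDUF difference of 0.0495 ranged from -0.00906 (without unstable 4) to 0.07 when each animal was left out in turn, and the count of NDUF genes higher in unstable animals, 23 of 36, ranged from 16 to 26. Without the 3 unstable animals of higher age label the mean difference was 0.15. Of the alternatives chosen after seeing the data, leaving out unstable 4 gave -0.0141 (10 of 24 higher) over the genes above background on all 10 arrays, -0.0217 (15 of 36) after normexp and quantile normalization, and 0.0729 (27 of 36) after median scaling. Leaving out unstable 4 and 5 gave -0.0174 (13 of 36). Over all genes limma passed 1 gene with slide as a fixed block (MRPL38, adjusted p = 0.0291) and 1 when the older unstable animals were left out (HSBP1, adjusted p = 2.47e-05), against 0 in the fit on all animals without covariates. The causes of these shifts were not tested. With the replicate block the mean difference was 0.0495 and 23 of 36 NDUF genes were higher, with a smallest adjusted p of 0.946. Same-numbered animals deviated from their group means with correlations of -0.0604 to 0.00663. No unstable animal correlated best with the stable animal of its number. These values show no sign of pairing by number, but a pairing with little trace in expression would not be seen this way. With 5 arrays a group, precision is limited, only slide 1 held both groups, and 12 of 36 NDUF genes were below background on at least 1 array.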
